A study of Mus musculus with 10 samples.

Results

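Imprinted genes were followed across 10 single neurons of the mouse nucleus of the solitary tract. A list of 36 mouse imprinted genes was matched by Ensembl identifier and symbol to the per-neuron count tables, which held 25006 genes each. Of the 36, 35 were in the tables, 32 had at least 1 count and 30 were measured, meaning a mean of at least 1 CPM (a gene's count scaled to the library's total) over the 10 neurons. The neurons carried an eYFP reporter under the long leptin receptor's Cre line (LepRb-Cre) in C57BL/6 mice aged 3 months. Each was recorded in an acute brainstem slice, and its cytoplasm and nucleus were then drawn into the patch pipette and made into 1 library. The labels sort the cells by firing pattern into 5 type 1 neurons (1-1, 1-2, 4-3, 8-2 and 9-1) and 5 type 2 neurons (6-2, 10-1, 10-3, 9-2 and 9-4). No animal is named for any cell. Each firing type therefore counts as 1 sample, the types are compared with no test or p-value, and every SD is the spread between cells of a type.

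Genomic imprinting leaves 1 parental copy of a gene silent, through DNA methylation set in the egg or the sperm and kept in the cells of the offspring. Most imprinted genes lie in domains, where a control region sets which of the neighbouring genes are read from the maternal and which from the paternal copy, often through a long non-coding RNA. Many of them are strongly expressed in the brain, where they have been linked to feeding, growth and maternal behaviour. The parental classes used below are textbook background: 19 listed genes are paternally expressed, 8 are maternally expressed, and 9 depend on isoform or tissue or show only a bias. Counts per gene carry no information on the allele of origin.

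Library totals ran from 9796799 to 41844825 counts, so that 3 counts, the upper limit that a count of 0 allows, stood for 0.306 CPM in the shallowest and 0.0717 CPM in the deepest library. Galanin transcripts were at 1859 to 5124 CPM in the type 1 neurons, and proglucagon transcripts at 3556 to 17680 CPM in the type 2 neurons. Of 8 neuron markers, 6 to 8 were detected in each cell, where detected means at least 10 CPM and at least 3 counts. Microglial transcripts, summed over 14 markers, were at 1809 CPM in 6-2, 1570 CPM in 9-4, 896 CPM in 1-2 and 524 CPM in 9-2, and at 0.067 to 78.4 CPM in the other 6 cells. Their part in the values below was not tested. Astrocyte markers summed to at most 189 CPM and oligodendrocyte markers to at most 592 CPM, in 6-2 and 9-1 respectively.

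Of the 36 listed genes, 12 were detected in all 10 neurons: Nap1l5, Snrpn, Ndn, Impact, Peg3, Nnat and Zdbf2 of the paternal class, Meg3 and Ube3a of the maternal class, and Blcap, Inpp5f and Grb10 of the class that depends on isoform, tissue or bias. That is 40% of the 30 measured members, beside 14.2% of the 11923 measured genes in the tables. The members were chosen with earlier results of these data known. In a second list of imprinted genes, described below, the share was 16.7% of 24 measured genes. Of the 36 listed genes, another 18 were detected in some neurons and not in others, and 5 of the 35 in the tables in none. Each neuron held 19 to 24 detected members: 20, 24, 20, 22 and 20 in type 1 and 24, 19, 19, 22 and 24 in type 2. With 5 cells a type, detection in 5 of 5 allows a share of 47.8 to 100%, 4 of 5 allows 28.4 to 99.5%, 3 of 5 allows 14.7 to 94.7% and 0 of 5 allows up to 52.2% (exact Clopper-Pearson 95% intervals). These intervals take the 5 cells of a type as independent draws, which the labels do not establish, and leave out any spread between animals. The floors cover counting error only.

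**Figure D1:**
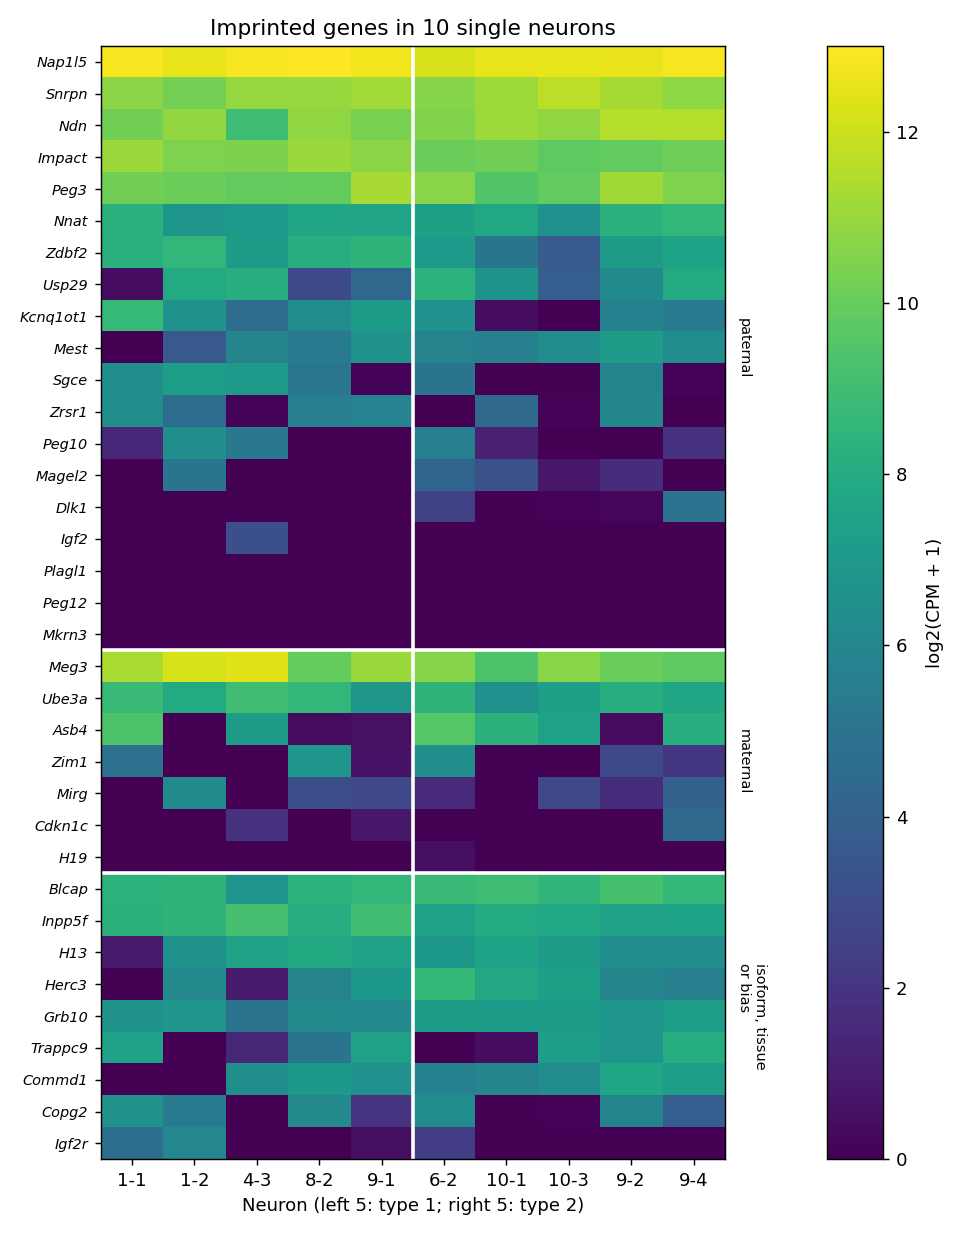
Level of 35 imprinted genes (rows, grouped by parental class) in 10 neurons (columns; type 1 left and type 2 right of the white line), as log2(CPM + 1). The 12 genes detected everywhere form unbroken bright or mid-tone rows, 3 rows (Plagl1, Peg12 and Mkrn3) are dark throughout, and most others hold dark and bright cells within one type.

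Imprinted transcripts made up 1.52 to 1.96% of all counts in a neuron. The share was 1.96, 1.91, 1.96, 1.89 and 1.92% in the type 1 neurons and 1.57, 1.52, 1.62, 1.86 and 1.83% in the type 2 neurons, so that the types did not overlap, with 1.89% in 8-2 next to 1.86% in 9-2. Leaving out 1 gene, the non-coding RNA Meg3, ended the separation. The shares then were 1.43 to 1.80% in type 1 and 1.42 to 1.75% in type 2, which overlap. Meg3 was not alone in this, since the gap was narrow and leaving out only Nap1l5 or only Impact would also end it. A set of 6 genes, Nap1l5, Meg3, Snrpn, Ndn, Impact and Peg3, supplied 77.8 to 89.0% of all member counts in each neuron.

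Levels between genes were compared per kilobase of exon, since a longer transcript can collect more reads. The amplification chemistry, and with it any bias to one transcript end, is not given in the sources used here. Over 10 neurons the median was 3535 CPM per kilobase for Nap1l5 (range 2619 to 4677), above every value of any other member. Snrpn followed at 916 (582 to 1553) and Ndn at 489 (136 to 819) CPM per kilobase, and the ranges of these 2 genes overlapped. Impact was next at 250.5 (174 to 417), then Blcap at 126 (37.2 to 192), Nnat at 108 (50.9 to 216), Meg3 at 88.4 (36.8 to 289) and Peg3 at 87.2 (53.2 to 186). From Blcap to Peg3 the medians lay within the spread of their neighbours, and no order among those 4 can be read. Each of the remaining genes detected everywhere had a median of at most 31.1 CPM per kilobase.

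Nap1l5, which encodes a nucleosome assembly protein-like factor, was both the highest and the most even member. Its gene (ENSMUSG00000055430, chr6:58905233-58907076, minus strand, GRCm38) is a short paternally expressed unit inside the span of Herc3 and shares no exon base with it. Nap1l5 stood at 7402, 6011, 7119, 8624 and 6708 CPM in the type 1 neurons and at 4829, 6036, 5816, 6330.3 and 7279 CPM in the type 2 neurons, in the order given above, which is kept for all genes below. Type 1 averaged 7173 ± 966 CPM and type 2 averaged 6058 ± 885 CPM (SD, n = 5 cells each), and the ranges overlapped. The highest cell was 1.79-fold above the lowest. Among the 1694 genes detected in all 10 neurons, the SD of log2(CPM + 1) for Nap1l5, 0.23, was the 3rd lowest, beside a median of 0.80. Among the 79 such genes with a mean over 1000 CPM, whose median SD was 0.48, it was the 2nd lowest. Evenness was not shared by all members detected everywhere: Snrpn was 60th, Impact 109th and Peg3 339th of the 1694, while Meg3 was 1225th and Zdbf2 1662nd, with cells 31.1-fold apart.

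Herc3, a ubiquitin ligase whose transcripts show an allelic bias in brain, was far more variable than the gene it encloses. Its values were 0.067, 69.1, 0.92, 54.5 and 123 CPM in type 1 and 404, 225, 158, 59.1 and 48.8 CPM in type 2. It was detected in 3 of 5 type 1 and 5 of 5 type 2 neurons, and 8 neurons held both genes. The difference, type 2 minus type 1, of the mean log2(CPM + 1) was 3.09, the scale used for every difference below, and the types overlapped. Within the 3 neurons whose names begin with 9 the difference turned to -1.18, since 9-1 stood above 9-2 and 9-4. Over the 10 neurons, Pearson's r between Nap1l5 and Herc3 was -0.58 and Spearman's rho -0.83. This and all coefficients below describe 10 points that share library and depth, and carry no p-value.

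**Figure D2:**
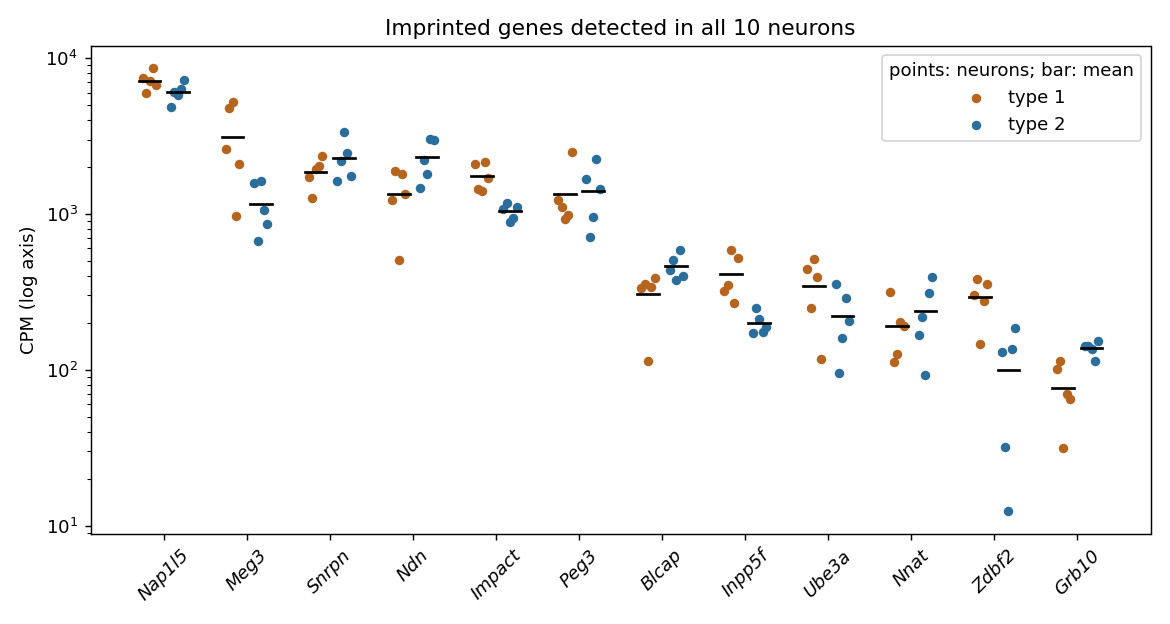
CPM on a log axis of the 12 imprinted genes detected in all 10 neurons, with 1 point a neuron, type 1 in brown and type 2 in blue, and a bar at each type's mean. Nap1l5 forms the tightest pair of clouds, at 4829 to 8624 CPM, and the clouds of the types are apart for Impact and Inpp5f.

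The Peg3 domain joins a paternally expressed zinc-finger gene, Peg3, to the deubiquitinase gene Usp29, transcribed in the opposite direction from the other side of the same control region, and to the maternally expressed zinc-finger gene Zim1. Peg3 (ENSMUSG00000002265, chr7:6703892-6730431, minus strand) and Usp29 (ENSMUSG00000051527, chr7:6730578-6967219, plus strand) start 146 bases apart. The bases between the starts, taken from RefSeq's GRCm38.p6 at chr7:6730432-6730577 on the plus strand, are shown because one stretch of DNA faces both genes; CpG dinucleotides, where imprinted methylation is written, are in capitals.
Peg3 to Usp29: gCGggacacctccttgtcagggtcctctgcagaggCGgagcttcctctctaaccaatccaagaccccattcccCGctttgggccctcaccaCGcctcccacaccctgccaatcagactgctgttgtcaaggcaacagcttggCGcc
The stretch holds 5 CpG dinucleotides, and 54.7% of promoter windows of the same length hold fewer. Neither TGCCGC, the hexamer bound by the imprint-keeping factor ZFP57, nor GCCATNTT, the motif of YY1, matched on either strand; they occur in 5.81% and 2.18% of windows of that length.

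Peg3 was detected in every neuron, at 1222, 1100.5, 934, 979 and 2479 CPM in type 1 and 1666, 709, 955, 2236 and 1449.8 CPM in type 2. The high cells were 9-1 and 9-2, each named with a first number of 9 and of opposite firing types, and the means were 1343 ± 645 CPM and 1403 ± 602 CPM (difference 0.05). Usp29, across the shared interval, did not follow. Its values were 0.33, 244, 280.3, 6.69 and 19.1 CPM and 341, 103, 13.8, 71.8 and 243 CPM, from 5 counts in 1-1 to 4159 counts in 6-2. In 1-1 and 8-2 Usp29 was below 10 CPM while Peg3 was at 1222 and 979 CPM, and in 4-3, whose Peg3 was the lowest of type 1, Usp29 was the highest of type 1. Pearson's r between them was 0.02 and rho -0.02. Usp29 differed by 1.87 between the types and by 0.79 without 1-1, so its place past 2-fold rested on that cell. Zim1 was at 27.4, 0, 0, 112 and 0.54 CPM and 84.7, 0, 0.028, 6.21 and 3.18 CPM, and was detected in 1-1, 8-2 and 6-2 alone, with r of -0.32 to Usp29.

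The Prader-Willi and Angelman domain on chromosome 7 supplied steady and absent genes side by side. Ndn encodes necdin, a MAGE-family protein of postmitotic neurons (ENSMUSG00000033585, chr7:62346569-62350262, plus strand). It was at 1219, 1877, 502, 1804 and 1348 CPM in type 1 and 1473, 2221, 1811, 3026 and 2991 CPM in type 2, with means of 1350.2 ± 552 CPM and 2304 ± 695 CPM and a difference of 0.85. Cell 4-3 was the lowest of the 10, 9-2 and 9-4 were the highest, and the ranges of the types overlapped. Snrpn encodes SmN, the neuronal form of a core splicing protein (ENSMUSG00000102252, chr7:59982495-60140219, minus strand). Its values, 1722, 1258, 1938, 2018 and 2369 CPM and 1614, 2198, 3354, 2455 and 1749 CPM, stayed within 2.67-fold of each other, with a difference of 0.27 and overlapping types. The small coding gene Snurf lies wholly inside the exons of Snrpn and was listed at 0 in every cell, so reads of their joint transcript are not separated by these tables. Although Ndn and Snrpn answer to the same control region, r between them was 0.11 and rho 0.24.

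The other genes of this domain were low or unread. Magel2, the MAGE-family neighbour of Ndn, was detected in 1-2 at 32.0 CPM and in 6-2 at 17.3 CPM. It was at 8.36 CPM in 10-1 and at 0 to 2.17 CPM in the other cells. All 4 of the other type 1 neurons had no count of it and every type 2 neuron had at least 1, which in 9-4 rests on 1 count. Without 1-2, the overlapping cell, the types therefore did not overlap, as was so for 3.27% of all measured genes. Mkrn3, a makorin ubiquitin ligase, and Peg12, a paternally expressed single-exon gene, had no count in any of the 10 libraries, which allows at most 0.0717 CPM in the deepest and 0.306 CPM in the shallowest. Ube3a, a ubiquitin ligase read from the maternal copy in neurons (ENSMUSG00000025326, chr7:59228750-59311536, plus strand), was at 439.8, 247, 513, 393 and 118 CPM in type 1 and 356, 95.1, 159.8, 289 and 206 CPM in type 2. The types overlapped and differed by -0.60. Its r to Ndn was -0.47 and to Snrpn -0.41. The antisense transcript Snhg14, which runs from the paternal Snrpn side, was at 80.3, 239.8, 58.1, 27.0 and 98.6 CPM and 115, 9.78, 108, 124 and 26.2 CPM. Snhg14 overlaps 8.74% of the exon bases of Ube3a on the other strand, and because no source gives the strand setting of the counting, reads there cannot be told apart.

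In the Dlk1-Meg3 domain on chromosome 12 Meg3, known as maternally expressed, was abundant, and Dlk1, known as paternally expressed, was almost unread. Dlk1 is a NOTCH-related transmembrane protein. Meg3 is a long non-coding RNA of the maternal copy that stays largely in the nucleus, and Rian and Mirg are non-coding transcripts of the same copy that carry small nucleolar RNAs and microRNAs. The RefSeq GRCm38.p6 bases just before both starts are set side by side to show the DNA ahead of the unread and the read gene, with CpG dinucleotides in capitals: Dlk1 at chr12:109452573-109452822 and Meg3 at chr12:109540746-109540995, both on the plus strand.
Dlk1: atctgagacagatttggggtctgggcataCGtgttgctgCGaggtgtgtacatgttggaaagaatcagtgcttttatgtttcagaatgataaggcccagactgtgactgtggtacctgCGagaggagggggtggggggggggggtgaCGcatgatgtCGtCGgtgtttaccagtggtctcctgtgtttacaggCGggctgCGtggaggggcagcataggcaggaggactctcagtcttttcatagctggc
Meg3: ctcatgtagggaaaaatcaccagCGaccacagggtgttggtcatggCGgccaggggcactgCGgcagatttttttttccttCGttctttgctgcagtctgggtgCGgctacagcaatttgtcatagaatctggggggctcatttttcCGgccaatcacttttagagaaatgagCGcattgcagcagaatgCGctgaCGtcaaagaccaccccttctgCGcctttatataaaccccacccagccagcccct
These 250-base windows hold 8 CpG dinucleotides for Dlk1 and 10 for Meg3, and 57.0% and 62.2% of 32851 promoter windows hold fewer. The Meg3 window has 1 match to TGCCGC and that of Dlk1 none, beside 8.68% of all windows with a match on either strand. Over 43 windows of 30 members the median was 10 CpG, beside 6 over all windows, 8 of the 43 held TGCCGC, and 2 held GCCATNTT, which 3.91% of all windows hold. The windows with TGCCGC include Mest at chr6:30737800-30738049 and chr6:30737803-30738052, which overlap almost wholly and are counted separately. A match or its absence describes these letters only.

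Dlk1 had counts in 5 neurons and was detected in 9-4 alone, at 30.1 CPM from 946 counts. Cell 6-2 was at 4.67 CPM, and all type 1 neurons were at 0 to 0.048 CPM. Cells 9-4 and 6-2 were also the ones highest in microglial transcripts, whose part was not tested. Meg3 (ENSMUSG00000021268, chr12:109541001-109571726, plus strand) was at 2594, 4803, 5231, 965 and 2079 CPM in type 1 and at 1575, 667, 1624, 1058 and 866 CPM in type 2. Cells 1-2 and 4-3 were the highest and 10-1 the lowest, while 8-2 was the one type 1 cell within the range of type 2. The means were 3134 ± 1823 CPM and 1158 ± 427 CPM, and the difference was -1.28, with a range of -1.64 to -1.03 when each neuron was left out in turn. Without 8-2 the types did not overlap, which follows from its being the overlapping cell. Without it, 3.71% of all measured genes did not overlap. Among libraries above 20000000 counts the difference was -0.51, and 3 of the 4 libraries below that depth are of type 1.

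Meg3 also ran with another nuclear RNA. Malat1, a long non-coding RNA of nuclear speckles and no imprinted gene, was chosen for this comparison after the values were seen. It was at 13164, 21418, 25043, 1783 and 6878 CPM in type 1 and 8269.9, 676, 2462, 6219.6 and 2626 CPM in type 2. The 5 type 1 neurons stood in one order for both RNAs, from 4-3 down through 1-2, 1-1 and 9-1 to 8-2. In type 2, cell 10-3 was highest for Meg3 and 4th for Malat1, and the other 4 kept one order. Over the 10 neurons r was 0.90 and rho 0.88. The same coefficients were 0.62 and 0.49 for Kcnq1ot1, another chromatin-bound non-coding RNA, -0.08 and -0.04 for Nap1l5, and 0.09 and -0.15 for Mirg, a non-coding RNA of the same domain as Meg3. How much of each nucleus entered the pipette is not recorded in the labels, so its part in the levels of Meg3 was not tested.

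Mirg, farther along the domain, was detected in 1-2 at 73.9 CPM and in 9-4 at 14.7 CPM, and was at 0 to 7.65 CPM elsewhere. Its r to Meg3 was 0.12, although both come from the maternal copy. Rian itself had no row in the tables. In its span, chr12:109603940-109661716, 8 genes were listed, 4 had a count and 1, the small nucleolar RNA gene AF357425, was detected, at 14.4 CPM in 1-2 and 23.3 CPM in 4-3, the cells highest in Meg3.

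The Peg10 domain on chromosome 6 holds the retrotransposon-derived gene Peg10 and the epsilon-sarcoglycan gene Sgce, both paternal and divergently transcribed from starts with 98 bases between them, and the maternally expressed Asb4, an ankyrin-repeat adaptor of a ubiquitin ligase. Sgce was at 87.9, 149, 126, 33.9 and 0.096 CPM in type 1 and 32.4, 0, 0.055, 57.4 and 0.095 CPM in type 2, and was detected in 4 of 5 and 2 of 5 cells. Peg10 was detected in 1-2 at 87.6 CPM, in 6-2 at 47.2 CPM and in 4-3 at 36.5 CPM, and stayed at 0 to 2.67 CPM elsewhere. All 3 neurons with Peg10 also had Sgce, another 3 had Sgce alone, and none had Peg10 alone (r 0.55, rho 0.50). Sgce differed by -2.96 between the types. That value was 2.87 among the neurons whose names begin with 9, where the one type 1 cell had 3 counts. The direction of Sgce was thus kept in 21 of 22 alternative settings, not in all.

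Asb4 was abundant in some cells and nearly absent from others (ENSMUSG00000042607, chr6:5383386-5433022, plus strand). It was at 654, 0, 133, 0.29 and 0.48 CPM in type 1 and at 747, 326, 169.8, 0.28 and 293 CPM in type 2. Detection was in 2 of 5 and 4 of 5 neurons, and the 4 cells without it, 1-2, 8-2, 9-1 and 9-2, had 0 to 15 counts. Its difference of 3.30 was the largest positive one among the members, and ran from 2.44 to 4.91 when each neuron was left out. The on and off cells of Asb4 were not those of its paternal neighbours, with r of 0.18 to Peg10 and -0.21 to Sgce. Within each firing type, therefore, cells at 0 to 0.48 CPM of Asb4 stood beside cells at 133 to 747 CPM.

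Mest, a paternally expressed alpha/beta-hydrolase gene, and Copg2, a subunit of the coat of Golgi vesicles, converge on chromosome 6. Mest was at 0, 11.2, 59.8, 39.2 and 99.9 CPM and 56.3, 50.5, 82.1, 139.9 and 79.2 CPM, with no count in 1-1 and detection in the other 9 cells. The difference of 1.97 was 0.89 without 1-1. Copg2 was at 97.0, 40.9, 0, 67.8 and 3.03 CPM and 80.3, 0, 0.083, 57.1 and 13.5 CPM, and r between the genes was -0.42. Their 3′ exons share 912 bases on opposite strands, 23.1% of Mest and 17.8% of Copg2, so both values are uncertain without a strand setting. Copg2 differed by -0.79, and by 0.02 without 10-1.

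**Figure D3:**
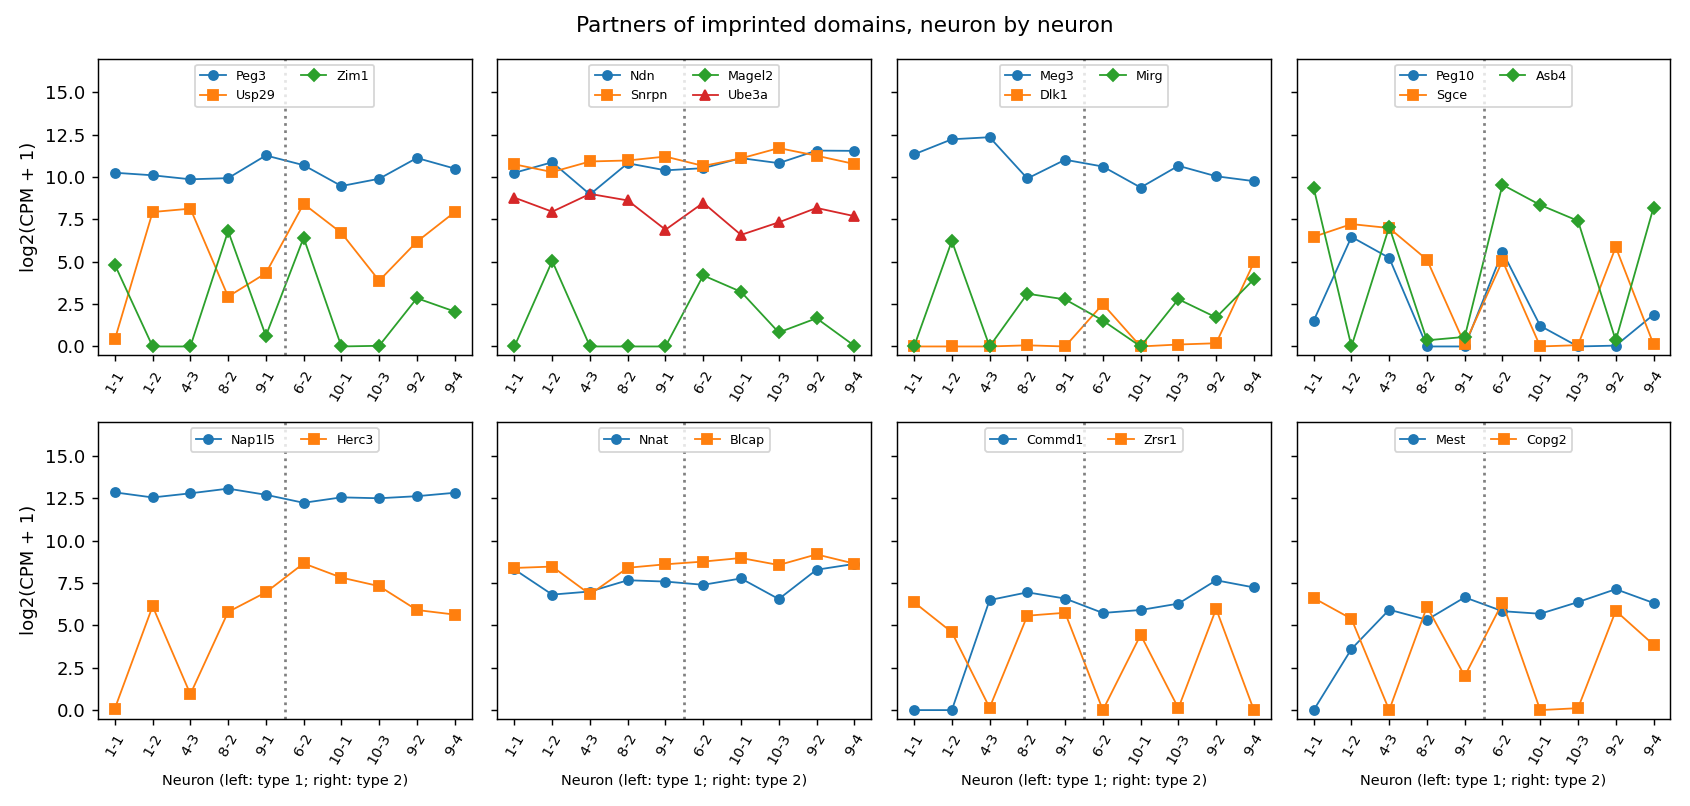
Level as log2(CPM + 1) of the members of 8 imprinted domains, 1 panel a domain, with neurons along the x axis and type 2 right of the dotted line; lines only join the points of a gene, since the cells have no order. Peg3, Ndn, Snrpn, Meg3 and Nap1l5 stay at 502 CPM or more in every cell, while Usp29, Magel2, Dlk1, Peg10 and Zrsr1 drop to or near 0 in cells where their partners do not.

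Nnat and Blcap form a nested pair on chromosome 2, in which the paternally expressed gene for neuronatin, a small membrane proteolipid of the endoplasmic reticulum, sits inside Blcap, some brain transcripts of which show the opposite parental preference. The 2 genes share no exon base, and both were detected in all 10 neurons. Nnat was at 315, 112, 127, 202 and 191 CPM in type 1 and 168, 218, 93.0, 311 and 395 CPM in type 2, with overlapping types and a difference of 0.25. Blcap was at 335, 354, 113, 337 and 389 CPM and 435, 504, 378, 584 and 401 CPM, with means of 306 ± 109.8 CPM and 460.2 ± 83.9 CPM. Cell 4-3 was the lowest in Blcap and 9-1, at 389 CPM, was the one type 1 cell above the lowest type 2 cell, 10-3, at 378 CPM. The difference of Blcap was 0.69, and r between the pair was 0.39.

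Commd1, a regulator of copper handling and of protein degradation, encloses Zrsr1, a paternally expressed retrogene copied from a splicing factor gene. Commd1 was at 0, 0, 89.2, 123 and 95.01 CPM in type 1 and 52.2, 59.1, 77.0, 202 and 150.4 CPM in type 2, with no count in 1-1 or 1-2. Zrsr1 was at 81.5, 23.2, 0.1, 46.6 and 52.7 CPM and 0, 20.7, 0.083, 61.9 and 0 CPM. Both genes were detected in 4 neurons, Commd1 alone in 4 and Zrsr1 alone in 2, namely the 2 cells without Commd1. Their r was -0.33 and rho 0.01. Commd1 differed by 2.56, by 1.56 without 1-1 or without 1-2, and by -0.21 when medians replaced means. Zrsr1 differed by -2.38, with overlapping types. They share 412 exon bases on opposite strands, and reads of Zrsr1 can also be split with the gene it was copied from, so both remain uncertain.

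In the Kcnq1 domain on chromosome 7 the paternal long non-coding RNA Kcnq1ot1, which silences its neighbours on that copy, was read in most cells. It was at 416, 97.9, 24.4, 75.8 and 134 CPM in type 1 and at 93.3, 0.34, 0, 50.8 and 38.6 CPM in type 2 (ENSMUSG00000101609, chr7:143203458-143296549, minus strand). Cell 1-1 was the highest, and 10-1 and 10-3 held 14 and 0 counts. The difference of -3.07 was the largest negative one among the members. It rested on those cells in part: it was -1.32 with medians in place of means, and -0.11 among the libraries under 20000000 counts, where type 2 is 1 cell. Cdkn1c, the maternally expressed cyclin-dependent kinase inhibitor of the domain, was detected in 9-4 alone, at 20.4 CPM, with 25 counts each in 4-3 and 9-1 and none elsewhere. Cell 9-4 also held 38.6 CPM of Kcnq1ot1.

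The genes of the insulin-like growth factor pair were near silent. Igf2, the paternally expressed growth factor, had 79 counts in 4-3 (8.06 CPM) and none in the other 9 cells. H19, the maternally expressed non-coding RNA beside it, had 5 counts in 6-2 and none elsewhere. Igf2r, the receptor that clears the factor and is maternally expressed in many tissues, was detected in 1-1 at 25.2 CPM and 1-2 at 64.7 CPM, reached 4.10 CPM in 6-2 and 0.38 CPM in 9-1, and had no count in the other 6. Plagl1, a paternally expressed zinc-finger regulator of growth, had no count in any cell.

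Impact and Inpp5f were the 2 members for which every type 2 neuron lay below every type 1 neuron. Over all measured genes, 70 (0.587%) had that pattern. Impact, a paternally expressed regulator of the amino acid-sensing kinase GCN2 (ENSMUSG00000024423), was at 2078, 1453, 1397, 2138 and 1688 CPM in type 1 and 1081, 1172, 890.0, 947 and 1109.7 CPM in type 2. The lowest type 1 cell, 4-3 at 1397 CPM, stood above the highest type 2 cell, 10-1 at 1172 CPM. The means were 1751 ± 344 CPM and 1039.9 ± 117 CPM, with a difference of -0.74. Inpp5f, a phosphoinositide phosphatase with a paternally expressed brain isoform (ENSMUSG00000042105, chr7:128611328-128696425, plus strand), was at 322, 347, 582, 269.97 and 523 CPM and 171, 248, 210.0, 174 and 187 CPM, with means of 409 ± 136 CPM and 198 ± 32.0 CPM and a difference of -0.99. Here 8-2 was the lowest type 1 cell and 10-1 again the highest type 2 cell. Leaving out a neuron cannot end such a separation, so that setting says nothing about it. The separation of both genes ended when libraries were scaled by trimmed mean of M-values (TMM), with differences of -0.51 for Impact and -0.77 for Inpp5f. TMM moved the median difference over all measured genes from 0.24 to 0.39.

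Grb10, an adaptor that restrains insulin receptor signalling and is read from the paternal copy in neurons and the maternal copy in other tissues, had the reverse pattern with 1 exception (ENSMUSG00000020176, chr11:11930508-12038683, minus strand). It was at 102, 114, 31.4, 70.2 and 64.9 CPM in type 1 and 141, 142, 137, 114 and 154 CPM in type 2, so that 1-2 at 114.4 CPM was just above 9-2 at 113.7 CPM. The means were 76.5 ± 32.7 CPM and 137 ± 14.7 CPM, and the difference 0.96. With TMM the types no longer overlapped for Grb10, at 23.7 to 90.4 CPM and 118 to 173 CPM. Zdbf2, a paternally expressed zinc-finger gene (ENSMUSG00000027520, chr1:63273265-63314576, plus strand), was at 300.1, 383, 146, 276 and 353 CPM and 131, 32.0, 12.3, 135 and 185 CPM. Cells 10-3 and 10-1 were lowest, and only 4-3 of type 1 was below a type 2 cell. Zdbf2 differed by -2.03. Its types did not overlap without 4-3 or without 9-4, the cells that made them overlap. Of all measured genes, 3.03% and 3.005% did not overlap in these settings.

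Of the last 2 members, H13 encodes signal peptide peptidase, and its transcripts end at different sites on the 2 parental copies. H13 was at 0.93, 103, 180.4, 241 and 178 CPM and 123, 184, 138, 83.2 and 85.5 CPM, with 14 counts in 1-1. Its difference of 0.78 turned to -0.52 without that cell. Trappc9, a subunit of a vesicle-tethering complex with maternal bias in brain, was on in 6 neurons and off or near off in 4. Its values were 173, 0, 1.63, 30.6 and 172 CPM and 0, 0.36, 153, 113 and 262 CPM. The difference of 0.27 changed sign on leaving out any of 5 neurons.

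Members differed between the firing types in both directions. Past 2-fold, 6 of the 30 measured members were higher in type 2 (Asb4, Herc3, Commd1, Mest, Usp29 and Dlk1), beside 31.1% of all measured genes. Another 6 were lower (Kcnq1ot1, Sgce, Zrsr1, Zdbf2, Igf2r and Meg3), beside 21.6%. These shares stood below or above those of all genes depending on the setting: with a pseudocount of 10, 5 members were higher and 5 lower, beside 13.6% and 10.4% of all genes, and TMM gave 9 higher and 6 lower, beside 33.95% and 19.73%. No member had every type 2 neuron above every type 1 neuron, a pattern shown by 1.44% of measured genes. The median difference was 0.15 over the measured members and 0.24 over all measured genes. It became negative, at -0.22 to -0.15, without 4-3, 9-2 or 9-4, so its sign is not fixed. Among the 6 libraries above 20000000 counts, type 1 was 8-2 and 9-1 alone. There, differences past 2-fold shrank to 0.30 for Herc3, 0.39 for Mest, 0.01 for Commd1 and -1.11 for Sgce. In the same libraries others grew, to 5.62 for Asb4, 2.54 for Usp29, -3.82 for Kcnq1ot1, -3.03 for Zrsr1 and -2.44 for Zdbf2. Without 6-2, 9-2 and 9-4, the type 2 cells rich in microglial transcripts, the difference of Usp29 was 0.54. Type 2 was then 10-1 and 10-3 alone, while 1-2, also rich in such transcripts, stayed in type 1.

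**Figure D4:**
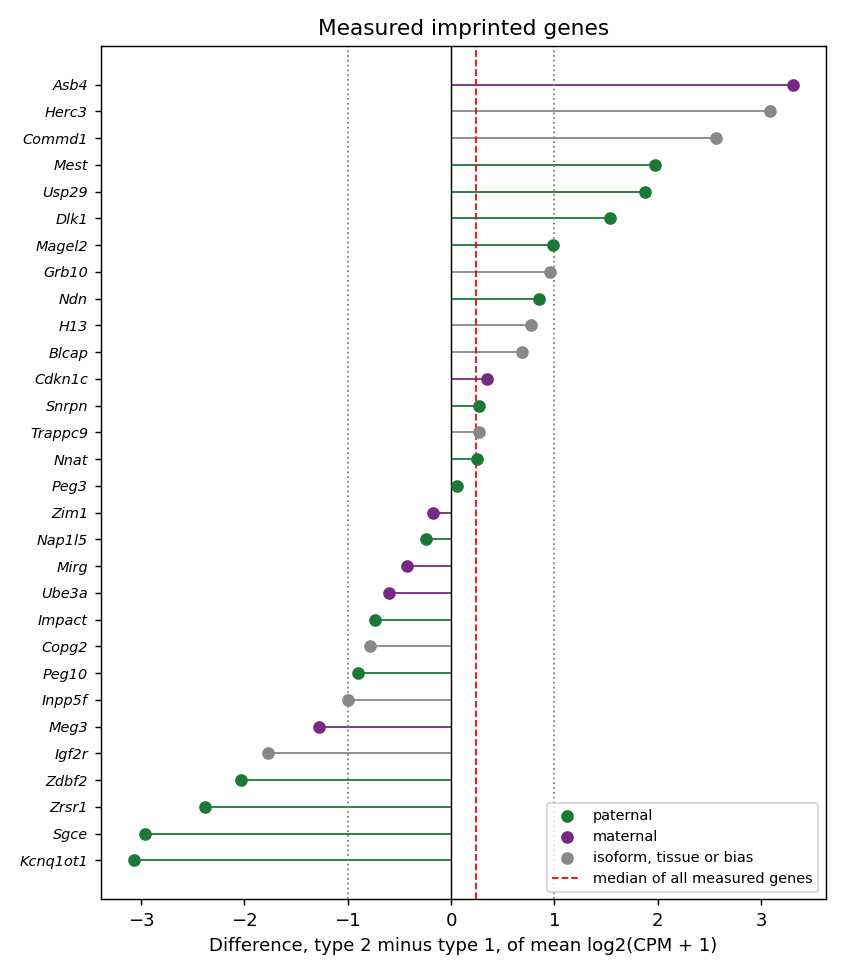
Difference of the mean log2(CPM + 1), type 2 minus type 1, for the 30 measured imprinted genes, coloured by parental class, with dotted lines at 2-fold and a dashed line at the median of all measured genes. Paternal genes run from -3.07 (Kcnq1ot1), the lowest of all, to 1.97 (Mest), below Asb4 (3.30, maternal) and Herc3 and Commd1 (3.09 and 2.56, class that depends on isoform, tissue or bias).

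Each parental class held genes past 2-fold in both directions. Of the 15 measured paternal genes, 3 were higher and 4 lower past 2-fold in type 2, with a median of 0.05, where 31.1% of all measured genes were higher and 21.6% lower. Of the 6 measured maternal genes, 1 was higher and 1 lower, with a median of -0.30. Of the 9 genes of the mixed class, 2 were higher and 1 lower, with a median of 0.69. That 1, Igf2r, and Dlk1 among the 3 higher paternal genes each reached the measured mean only through the type where they were higher. Detection in all 10 neurons was seen for 7 of the 19 paternal genes, 2 of the 8 maternal genes and 3 of the 9 mixed ones. Leaving out each neuron in turn gave paternal medians of -0.15 to 0.28 and maternal ones of -0.61 to 0.23.

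Of a second list of 44 imprinted genes, 24 were measured and 4 were detected in all 10 neurons, beside 14.2% of all measured genes, namely Rasgrf1, Cd81, Begain and Bcl2l1. Of the 24, 9 were higher and 2 lower past 2-fold in type 2, with a median of 0.60, beside 31.1% and 21.6% of all measured genes and their median of 0.24. Ddc, which makes the last step to dopamine and serotonin and is imprinted in heart, was the farthest, at 26.3, 152, 0.1, 1.03 and 116 CPM and 56.8, 325, 783, 187 and 567 CPM (difference 4.09). Qpct, a glutaminyl cyclase that caps peptide hormones, was at 291, 0, 194, 169 and 0.61 CPM and 157, 220.3, 454, 244 and 413 CPM (3.33). The others past 2-fold were Casd1 (2.29), Nap1l4 (1.35), Mcts2 (1.29), Phactr2 (1.20), Pon2 (1.14), Sfmbt2 (1.08) and Tssc4 (1.02) in one direction and Osbpl5 (-1.80) and Th (-1.58) in the other. Phactr2, Pon2, Sfmbt2 and Th were each detected in 1 neuron and reached the measured mean through its type alone. Mcts2, a retrogene nested in H13, can share reads with the gene it was copied from.

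Regulators of imprints and of DNA methylation were read in some cells and not in others. Of 21 listed regulators, 15 were measured and none was detected in all 10 neurons, beside 14.2% of all measured genes. Past 2-fold, 2 were higher in type 2 and 7 lower, with a median of -0.96, beside the same 31.1%, 21.6% and 0.24 over all measured genes. Trim28, the corepressor recruited by imprint-keeping zinc-finger proteins, was at 1.07, 0, 511, 140.0 and 20.04 CPM and 236, 154, 272, 92.6 and 93.5 CPM (difference 2.96). Smchd1, a chromatin silencer of imprinted clusters, was at 186, 63.4, 65.3, 105 and 0.25 CPM and 0.49, 25.7, 0.083, 0.07 and 65.2 CPM (-3.02). The DNA methyltransferase gene Dnmt3a was at 278, 80.9, 24.6, 32.1 and 47.1 CPM and 43.0, 67.9, 0.83, 4.35 and 0.16 CPM (-2.95). The others lower past 2-fold were Tet2 (-2.76), Tet3 (-2.75), Atrx (-2.39), Eed (-1.50) and Zfp445 (-1.35). For each of the regulators named here the ranges of the types overlapped.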

How the data were processed

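Per the submitters' processing notes, reads were trimmed with cutadapt 1.13, aligned with STAR to mm10 and counted with HTSeq 0.6.1p1; the notes also list DESeq2. Amplification chemistry, annotation release and strand setting were not given in the sources used here. Whole-number counts per gene, with neither normalization nor molecular identifiers, were deposited by the authors for each neuron.

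Counts were divided by each library's total (CPM). Symbols came from the reference annotation (GENCODE M21, mm10's GRCm38): 24942 of 25006 identifiers matched. Differences are type 2 minus type 1 of the mean log2(CPM + 1). Measured means a mean of at least 1 CPM, detected at least 10 CPM with at least 3 counts, and called a difference of at least 1. Tools were pandas 2.3.3, scipy 1.17.1 and edgeR 4.0.16 (TMM factors only). The calculation was tested on simulated data. Members that 3 or more neurons of 1 type held at detected levels are given cell by cell; Dlk1, Magel2 and other rarer ones by the cells that hold them. Of the listed regulators, 1 is counted but not reported here by name. The members and lists were chosen with earlier results of these data known. Alternatives were other pseudocounts, scalings, filters, depths and neurons left out.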

Additional observations from a re-analysis of the deposited data

Results flagged for a closer look

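Within the 5 neurons of a type, 5 of 46 gene-and-type groups held a cell whose gap to its nearest neighbour on the log2(CPM + 1) scale exceeded the 95% critical value of Dixon's test; chance flags about 1 in 20 groups, and the test concerns single cells within a type, not a difference between types. Peg3 was at 2479 CPM in 9-1 and at 934 to 1222 CPM in the other type 1 cells. Blcap was at 113 CPM in 4-3, beside 335 to 389 CPM. Zrsr1 was at 0.10 CPM in 4-3, beside 23.2 to 81.5 CPM. H13 was at 0.93 CPM in 1-1, beside 103 to 241 CPM. In type 2, Asb4 was at 0.28 CPM in 9-2, beside 170 to 747 CPM: the value in 9-2 rests on 8 counts.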

How the results depend on the processing

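Of the 23 members given cell by cell, 12 kept the sign of their difference under all 22 alternatives, as did 7 of the 10 called ones among them. The filter settings among these alternatives cannot change a gene's own difference. Dlk1 and Igf2r, also past 2-fold, are not among the 23. Commd1 turned to -0.209 with medians over neurons, and among the 3 neurons with first number 9 Sgce turned to 2.868 and Herc3 to -1.179; the cause was not tested. With 1 type 1 cell against 2 of type 2, that subset gave 10 of 27 members higher and 18 non-overlapping. Over all measured genes these shares were 45.03% and 69.7%. Its maternal median was 1.204, beside a median of 0.528 over all measured genes. Libraries above 20000000 counts, with type 1 as 8-2 and 9-1 alone, gave 7 of 28 members non-overlapping, beside 16.25% of all measured genes. In these libraries the median over members was -0.286. Those below, with type 2 as 1 cell, gave 11 of 30 members higher and 15 non-overlapping, beside 45.7% and 38.9%. Without 6-2, 9-2 and 9-4, the type 2 cells highest in microglial transcripts, type 2 was 10-1 and 10-3 alone. Type 1 kept all its cells, with 1-2 at 896 CPM of such transcripts. Of 29 members, 11 were lower and 7 did not overlap, beside 33.0% and 9.88% of all measured genes. Medians were -0.602 over all members, -0.602 over paternal and -1.294 over maternal ones, beside -0.1075 over all measured genes. The part of microglial transcripts in these shifts was not tested. TMM gave 1 non-overlapping member, Grb10, beside 2.115% of all measured genes. Leaving out each neuron in turn gave 2 to 4 non-overlapping members (4 without 1-2: Impact, Inpp5f, Grb10 and Magel2), beside 2.70 to 3.71% of all measured genes. Leaving out a cell cannot end a separation already present. Medians over members were then -0.221 to 0.290. The counts of non-overlapping members under the alternatives were added after seeing the data. Members detected per neuron had a median of 21, of 23.5 at 1 CPM and of 18 at 50 CPM. No paired analysis was possible because the types share 1 first number, 9, no label says what it marks, and each full name belongs to 1 cell. A 0 in these libraries allows up to 0.306 CPM, and 5 cells a type leave detection shares wide.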
